A study of Homo sapiens with 12 samples.

Results

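The class I antigen presentation genes are the genes that build, load and switch on the molecules with which a cell shows peptides from its own proteins on its surface. They were followed here in 2 lung cancer cell lines that over-express the splicing factor SRSF2. The members were a fixed list of 9 genes: the light chain B2M, the heavy chains HLA-B, HLA-C, HLA-E and HLA-F, the peptide transporter subunits TAP1 and TAP2, the loading factor TAPBP, and the activator NLRC5. Of the 9 genes, 7 had a row among the 16599 genes of the deposited count table, and TAP1 and TAP2 were not analysed here. The study measured polyadenylated RNA in 12 libraries, 3 from each of 4 groups: A549 cells labelled untreated, A549 cells over-expressing SRSF2, H1650 cells labelled untreated, and H1650 cells over-expressing SRSF2. A549 and H1650 are established human lung cancer cell lines. Untreated libraries carry the letters NC in their titles, which the labels do not explain. The labels give no vector, promoter, number of clones or time after the start of over-expression. They also do not say whether the 3 replicates were separate cultures, so p-values measure the spread between these libraries, which may be technical.

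A class I molecule consists of a membrane-bound heavy chain, B2M and a short peptide. The proteasome cuts cytosolic proteins into peptides, the TAP transporter moves them into the endoplasmic reticulum, and tapasin, the product of TAPBP, holds the empty heavy chain beside the transporter until a peptide binds. NLRC5 enters the nucleus and, together with the RFX, NF-Y and CREB/ATF proteins, switches on the promoters of B2M and the heavy chains, which also carry binding sites for NF-kB and interferon regulatory factors. In lung tumours, loss of class I molecules is a known way to escape cytotoxic T cells. SRSF2 is a serine/arginine-rich protein that binds exons and guides splicing.

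On GRCh38 with the GENCODE 29 annotation, B2M (ENSG00000166710) lies on chromosome 15 from 44711487 to 44718877. NLRC5 (ENSG00000140853) lies on chromosome 16 from 56989485 to 57083531. The other measured genes lie on chromosome 6: HLA-F (ENSG00000204642) from 29722775 to 29738528, HLA-E (ENSG00000204592) from 30489467 to 30494205, HLA-C (ENSG00000204525) from 31268749 to 31272130, HLA-B (ENSG00000234745) from 31269491 to 31357188, and TAPBP (ENSG00000231925) from 33299694 to 33314387. HLA-B, HLA-C and TAPBP are on the minus strand and the others on the plus strand. In GENCODE 29 the HLA-B model runs over HLA-C, and their exons share 35 bases, which is 1.15% of the HLA-B exons. That model spans 87698 bases, whereas the HLA-B length behind the authors' deposited FPKM was 3317 bases. The overlap may therefore not hold for the annotation used in counting. HLA-F overlaps the antisense gene HLA-F-AS1 over 535 exonic bases, 12.3% of the HLA-F exons. Whether reads were counted by strand is not given in the sources used here, so HLA-F reads cannot be told apart from antisense reads there. Runs of 50 bases that also occur in transcripts of another gene made up 2.12% of the HLA-B, 6.17% of the HLA-C, 5.13% of the HLA-E, 1.25% of the HLA-F and 5.13% of the TAPBP reference runs, and 0% of those of B2M and NLRC5. Counts of single heavy chains are therefore uncertain to the extent that such reads were shared or dropped. The alleles of A549 and H1650 themselves were not examined.

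Start-site windows of 300 bases, 250 before and 50 after the RefSeq start on GRCh38.p14, were in the reference table for 5 of the 7 measured genes. HLA-E and NLRC5 had no entry. The windows of B2M, HLA-B and HLA-C are printed because these genes rose in both lines, and that of TAPBP because it passed the test in neither. Capitals mark every match, on either strand, to AANNGAAA, the core letters bound by interferon regulatory factors, and to CCAAT, the box bound by NF-Y. B2M is read from chr15:44711267-44711566 (plus strand), HLA-B from chr6:31357130-31357429, HLA-C from chr6:31272043-31272342 and TAPBP from chr6:33314029-33314328 (all minus strand), each 5′ to 3′ along its gene.
B2M: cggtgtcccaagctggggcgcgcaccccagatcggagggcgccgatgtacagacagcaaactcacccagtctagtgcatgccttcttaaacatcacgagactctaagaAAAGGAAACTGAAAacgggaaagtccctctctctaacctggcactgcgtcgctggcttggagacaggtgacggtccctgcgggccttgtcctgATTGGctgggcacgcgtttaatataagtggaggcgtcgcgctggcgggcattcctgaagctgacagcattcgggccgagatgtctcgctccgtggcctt
HLA-B: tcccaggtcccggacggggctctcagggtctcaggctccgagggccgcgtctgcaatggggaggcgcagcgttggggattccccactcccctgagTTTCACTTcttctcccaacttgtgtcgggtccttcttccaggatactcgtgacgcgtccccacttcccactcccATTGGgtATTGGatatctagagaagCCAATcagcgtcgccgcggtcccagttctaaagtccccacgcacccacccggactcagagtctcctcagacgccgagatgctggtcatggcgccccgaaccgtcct
HLA-C: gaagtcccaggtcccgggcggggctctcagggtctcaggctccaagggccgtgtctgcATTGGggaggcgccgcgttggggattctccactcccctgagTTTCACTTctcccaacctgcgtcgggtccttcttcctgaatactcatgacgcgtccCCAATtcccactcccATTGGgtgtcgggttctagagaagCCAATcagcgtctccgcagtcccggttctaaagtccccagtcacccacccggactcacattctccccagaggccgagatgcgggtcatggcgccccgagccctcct
TAPBP: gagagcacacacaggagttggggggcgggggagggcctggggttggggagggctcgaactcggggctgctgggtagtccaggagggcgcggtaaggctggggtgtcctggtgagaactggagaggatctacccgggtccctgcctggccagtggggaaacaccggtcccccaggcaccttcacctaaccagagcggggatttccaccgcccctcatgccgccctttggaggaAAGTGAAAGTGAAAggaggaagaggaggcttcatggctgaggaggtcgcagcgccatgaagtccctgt

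AANNGAAA was found in all 5 windows, and in 22.8% of the 35116 windows of that length in the table. Its first base lay at -142 and at -136 from the start in B2M, at -155 in HLA-B, at -151 in HLA-C, at -156 in HLA-F, and at -18 and -12 in TAPBP. The matches in B2M overlap each other, as do those in TAPBP, where they lie closest to the start. CCAAT was found in 4 of the 5 windows, 1 match in B2M, 3 in HLA-B, 4 in HLA-C and 2 in HLA-F, and in 34.6% of all windows. TAPBP had 0 matches to CCAAT. The letters TGACG, the first part of a CREB/ATF site, searched on both strands, were found in B2M at -75, HLA-B at -106 and HLA-C at -105, and in 24.6% of all windows. The NF-kB consensus, searched on both strands, was matched in B2M, HLA-B, HLA-C and TAPBP, and in 5.91% of all windows. The HLA-B and HLA-C windows were 88.5% identical, and the HLA-F window was 79.7% identical to that of HLA-B. These matches describe the reference letters and are not evidence of binding.

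The libraries held 23876899 to 32079027 counts over all 16599 genes with a row. After a filter on low counts 15991 genes were tested, and levels are given as counts per 1000000 (CPM) with library sizes scaled by the trimmed mean of M values. A change was called at an adjusted p of 0.05 from edgeR's quasi-likelihood test with Benjamini-Hochberg adjustment over all tested genes, and SE is the standard error of the log2 fold change. SRSF2 itself was not analysed here, so over-expression rests on the labels. All 6 epithelial markers had counts in every library, with a summed level of 9325 to 10460 CPM. KRT8 alone held 4081 to 5332 CPM. In A549 EPCAM was low, at 5.43 to 6.33 CPM untreated and 3.39 to 4.61 CPM with SRSF2. CDH1 was at 37.0 to 43.0 and 25.6 to 28.8 CPM there. H1650 libraries had 294.5 to 354 CPM of EPCAM and 1120 to 1328 CPM of CDH1. Leukocyte markers were low in sum (2 of 7 genes with a row, 2.80 to 7.53 CPM, PTPRC and CD3E without a row). Fibroblast markers were low (1 of 4 genes with a row, 4.74 to 14.6 CPM). Endothelial markers were not analysed here. In H1650 the leukocyte sum was 2.80 to 2.97 CPM untreated and 4.21 to 7.53 CPM with SRSF2, and its part in the results was not tested. Most of this sum was CD74, a class II gene, with 2.43 to 2.60 CPM untreated and 3.62 to 7.17 CPM with SRSF2. CD14, the other gene, had 0.354 to 0.438 and 0.218 to 0.597 CPM. These sums and marker levels are scaled to plain library totals. The class I genes made up 0.0454% to 0.0471% of all counts in untreated A549 and 0.0520% to 0.0530% with SRSF2. In H1650 they made up 0.374% to 0.386% untreated and 0.765% to 0.822% with SRSF2.

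Most of the measured class I genes rose with SRSF2 over-expression, with smaller changes of B2M and the 4 measured heavy chains in A549 than in H1650 and a larger change of NLRC5 in A549. In A549, 5 of the 7 measured genes rose and 0 fell by edgeR, while 16.4% of all tested genes rose and 15.9% fell. Their median log2 fold change was 0.35, beside 0.00 over all genes. In H1650, 6 of 7 rose and 0 fell, while 31% of all genes rose and 31.3% fell. Their median was 1.42, beside 0 over all genes. In both lines the number that fell was also 0 by DESeq2 and at an unadjusted p of 0.05. With limma on log2(FPKM + 1), TAPBP was called lower in H1650 (-0.11, adjusted p = 0.0447). B2M, HLA-B, HLA-C, HLA-E and NLRC5 rose in both lines, HLA-F passed the test only in H1650, and TAPBP passed it in neither. In bulk RNA, a change in the share of cells that express a gene and a change in RNA per cell cannot be told apart.

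**Figure D1:**
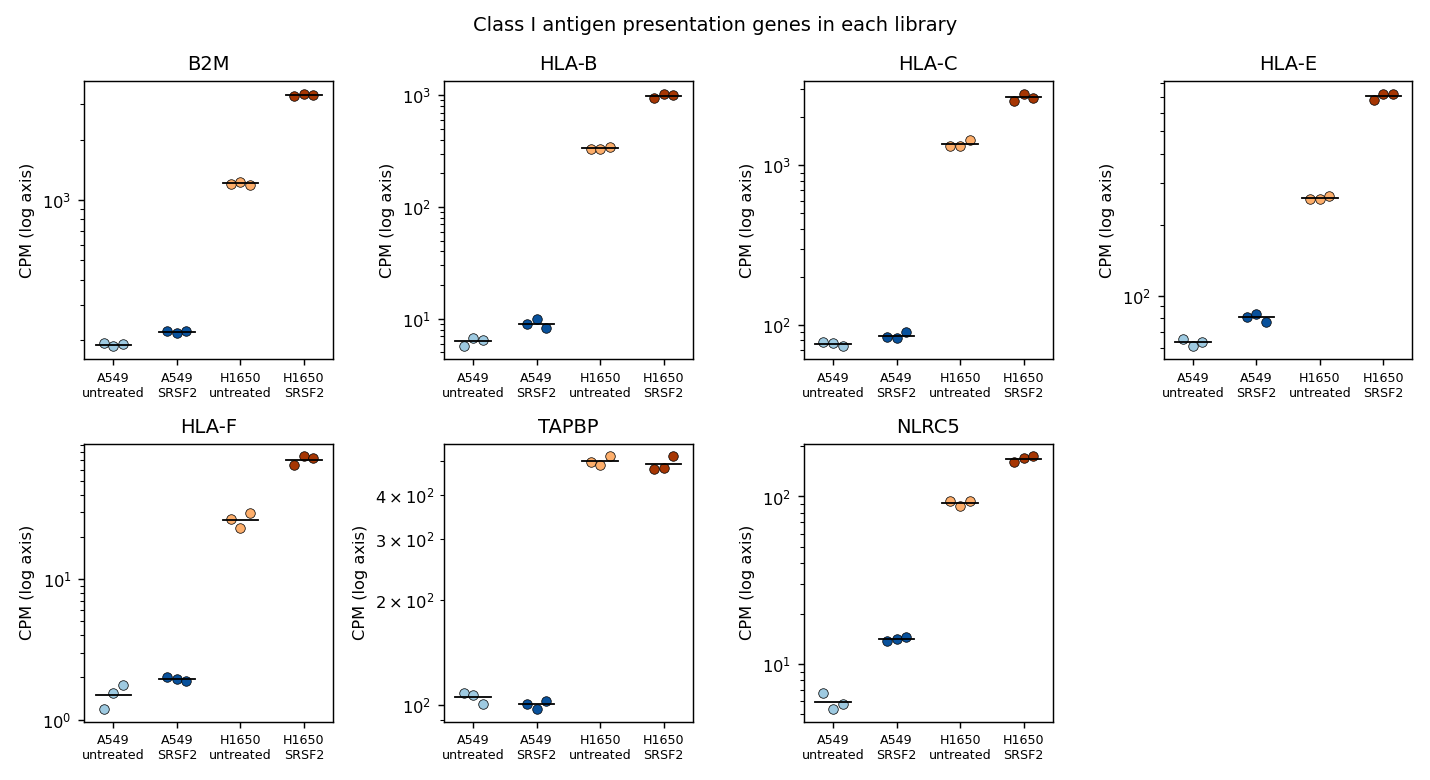
Level of each measured class I gene in each of the 12 libraries, in CPM on a log axis. Points are libraries, horizontal lines are group means of 3 libraries, and each panel has its own axis. The H1650 libraries lie above all A549 libraries in every panel, and the SRSF2 and untreated points overlap only for TAPBP.

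B2M is the light chain shared by all class I molecules, without which heavy chains do not leave the endoplasmic reticulum stably. In untreated H1650 its level was 1201, 1234 and 1193 CPM in replicates 1 to 3, and with SRSF2 it was 3305, 3387 and 3330 CPM. The 3 over-expressing libraries were all far above the untreated ones, and the change was 2.76-fold (log2 1.47, SE 0.03, edgeR adjusted p = 4.64e-29). By count, B2M stood between places 52 and 55 among all genes in untreated H1650 libraries and between places 8 and 10 with SRSF2. In untreated A549 its level was 193, 186 and 191 CPM, and with SRSF2 it was 222, 218 and 222 CPM. The A549 groups did not overlap either, with a change of 1.16-fold (log2 0.22, SE 0.03, edgeR adjusted p = 2.48e-06).

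HLA-B, a classical heavy chain that presents peptides to CD8 T cells, had the largest fold change among the members in H1650. Its level was 328, 329 and 344 CPM in untreated H1650 and 943, 1032.5 and 1006 CPM with SRSF2. All over-expressing libraries were above all untreated ones (2.98-fold, log2 1.57, SE 0.04, edgeR adjusted p = 1.19e-26), and 673 of the 15991 tested genes had a larger log2 fold change in that line. In A549 its level was 5.65, 6.75 and 6.47 CPM untreated and 8.91, 9.87 and 8.20 CPM with SRSF2. These groups also did not overlap (1.43-fold, log2 0.52, SE 0.09, edgeR adjusted p = 1.33e-05), at a level well below that of H1650.

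HLA-C, a classical heavy chain that is also read by killer cell immunoglobulin-like receptors of natural killer cells, was the most abundant of the 4 heavy chains per transcript length in every group. In H1650 it had 1328, 1329 and 1433 CPM untreated and 2539, 2813 and 2638 CPM with SRSF2 (1.95-fold, log2 0.97, SE 0.04, edgeR adjusted p = 2.99e-21). In A549 it had 78.5, 76.5 and 73.4 CPM untreated and 84.3, 82.6 and 89.7 CPM with SRSF2 (1.12-fold, log2 0.17, SE 0.04, edgeR adjusted p = 0.00349). The groups were apart in both lines, and in both HLA-C had the lowest log2 fold change of the heavy chains that passed the test.

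HLA-E presents peptides cut from the leader sequences of other class I chains and is bound by the NKG2 receptors of natural killer cells. In H1650 its level went from 259, 258 and 266 CPM untreated to 679, 722 and 718 CPM with SRSF2 (2.71-fold, log2 1.44, SE 0.04, edgeR adjusted p = 2.15e-26). In A549 it went from 65.5, 60.8 and 63.3 CPM to 81.2, 83.6 and 77.2 CPM (1.28-fold, log2 0.35, SE 0.04, edgeR adjusted p = 5.01e-08). The over-expressing libraries were above the untreated ones in each line.

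HLA-F, a non-classical heavy chain, was the scarcest of the 4 per transcript length. In H1650 its level was 26.6, 23.3 and 29.6 CPM untreated and 65.0, 74.8 and 72.8 CPM with SRSF2, with no overlap (2.67-fold, log2 1.42, SE 0.07, edgeR adjusted p = 1.13e-18). In A549 it had 1.19, 1.55 and 1.77 CPM untreated and 2.00, 1.95 and 1.88 CPM with SRSF2. These rest on 34 to 56 counts per library. The A549 groups did not overlap, but the change did not pass the test (log2 0.37, SE 0.20, edgeR adjusted p = 0.162).

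Because reads of near-identical heavy chains can be split or dropped, the counts of HLA-B, HLA-C, HLA-E and HLA-F were also summed and tested as 1 feature, a check chosen after the data were seen. The sum rose 2.23-fold in H1650 (log2 1.16, SE 0.03, edgeR adjusted p = 9.41e-25) and 1.20-fold in A549 (log2 0.27, SE 0.04, edgeR adjusted p = 5.97e-07). The sum does not depend on how reads were divided among the 4 genes.

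TAPBP was the measured member that passed the test in neither line. Its level in H1650 was 498, 488 and 517 CPM untreated and 476, 478 and 517 CPM with SRSF2 (log2 -0.03, SE 0.04, edgeR adjusted p = 0.509). In A549 it was 108, 107 and 100.04 CPM untreated and 101, 97.0 and 102.5 CPM with SRSF2 (log2 -0.07, SE 0.04, edgeR adjusted p = 0.234). On the CPM scale the groups overlapped in both lines. With limma on log2(FPKM + 1), whose values are scaled to plain totals, TAPBP in H1650 was at -0.11 with an adjusted p of 0.0447, which passes the threshold.

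NLRC5, the activator of class I promoters, showed the reverse order of the lines. In A549 its level was 6.70, 5.37 and 5.79 CPM untreated and 13.7, 14.2 and 14.6 CPM with SRSF2, a 2.38-fold rise (log2 1.25, SE 0.08, edgeR adjusted p = 3.65e-14), and 196 of the 15991 tested genes had a larger log2 fold change. In H1650 it was 94.0, 87.7 and 93.5 CPM untreated and 161, 170 and 174 CPM with SRSF2, a 1.83-fold rise (log2 0.88, SE 0.05, edgeR adjusted p = 5.68e-18), and 1724 genes had a larger one. The groups were apart in both lines. In CPM the gain was 8.20 in A549 and 76.5 in H1650, so the line with the larger fold had the smaller gain, and NLRC5 with SRSF2 in A549 remained far below its untreated level in H1650.

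**Figure D2:**
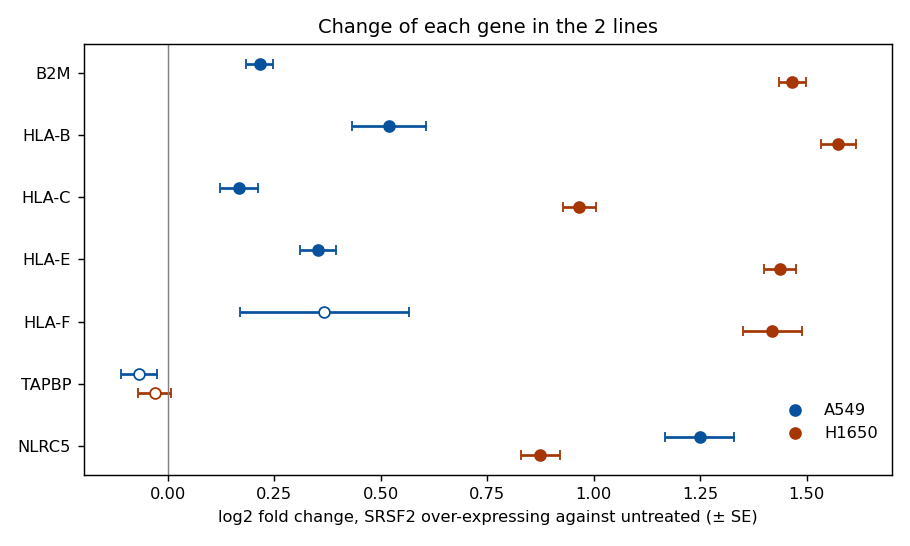
Log2 fold change of each measured class I gene, SRSF2 over-expressing against untreated, in A549 (blue) and H1650 (brown). Bars are standard errors, filled points passed an edgeR adjusted p of 0.05 and open points did not. B2M and the 4 heavy chains lie further right in H1650 (0.97 to 1.57) than in A549 (0.17 to 0.52), NLRC5 lies further right in A549, and TAPBP lies near 0 in both.

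The difference between the lines was tested as an interaction, the A549 change minus the H1650 change. Of the 7 genes, 5 responded less in A549 and 1 responded more, while 23.5% of all tested genes were called lower and 24% higher in that contrast. For B2M the difference in log2 fold change was -1.25 (SE 0.04, edgeR adjusted p = 1.57e-21). For the heavy chains it was -1.05 for HLA-B, -0.80 for HLA-C, -1.09 for HLA-E and -1.05 for HLA-F, with edgeR adjusted p between 3.62e-17 and 1.07e-04. TAPBP gave -0.04 (SE 0.06, edgeR adjusted p = 0.622). NLRC5 gave 0.37 (SE 0.09, edgeR adjusted p = 0.00132). The sign for NLRC5 depended on the scale: with limma on log2(FPKM + 0.1) it was -0.11 (adjusted p = 0.202) and on log2(FPKM + 1) it was -0.33 (adjusted p = 1.57e-05). The deposited NLRC5 means were 0.0652 and 0.154 FPKM in A549, untreated and with SRSF2, and 0.976 and 1.69 FPKM in H1650, so the added constants are large beside the A549 values. The A549 change itself was 0.62 and 0.12 on these scales.

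Before any over-expression, all 7 genes were higher in untreated H1650 than in untreated A549, while 40.1% of all tested genes were higher and 42.3% lower. The fold was 53.0 for HLA-B, 17.9 for HLA-C, 17.6 for HLA-F, 15.4 for NLRC5, 6.36 for B2M, 4.78 for TAPBP and 4.13 for HLA-E, with edgeR adjusted p of 2.47e-26 or less in each case. No library of one line overlapped any of the other. The classical chains and HLA-F had larger folds between the lines than B2M, TAPBP or HLA-E. The part that the lines' own HLA alleles play in these values through read mapping was not tested. SRSF2 over-expression left the order of the lines in place: the highest A549 library with SRSF2 had 222 CPM of B2M and the lowest untreated H1650 library had 1193 CPM.

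To compare genes with each other, counts were divided by the median length of each gene's principal transcripts and scaled to a sum of 1000000 in each library, which is the TPM scale. Levels follow as mean ± SD over 3 libraries. In untreated A549 the order was B2M (423 ± 4.58 TPM), TAPBP (134 ± 5.84), HLA-C (119 ± 4.29), HLA-E (58.5 ± 1.83), HLA-B (9.80 ± 0.936), HLA-F (2.22 ± 0.435) and NLRC5 (2.12 ± 0.231), and the ranges of the last pair overlapped. In untreated H1650 it was B2M (2816 ± 74.3 TPM), HLA-C (2233 ± 78.3), TAPBP (668 ± 13.5), HLA-B (543 ± 9.59), HLA-E (252 ± 2.06), HLA-F (40.8 ± 4.50) and NLRC5 (34.1 ± 1.12), with no overlap between neighbours.

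With SRSF2 the order in H1650 became B2M (7164 ± 58.0 TPM), HLA-C (4019 ± 178), HLA-B (1489 ± 63.9), HLA-E (630 ± 20.8), TAPBP (602 ± 33.9), HLA-F (100.5 ± 7.08) and NLRC5 (57.6 ± 2.33). On this scale TAPBP was below HLA-B and overlapped HLA-E. Its H1650 groups did not overlap here, with 656 to 682 TPM untreated and 580 to 641 TPM with SRSF2. In A549 with SRSF2 the order was B2M (494 ± 5.88 TPM), HLA-C (135 ± 6.64), TAPBP (128 ± 4.06), HLA-E (75.0 ± 2.66), HLA-B (14.1 ± 1.27), NLRC5 (5.05 ± 0.185) and HLA-F (2.88 ± 0.067), where HLA-C and TAPBP overlapped and NLRC5 was above HLA-F. Several of these places depended on the length used. With the authors' deposited FPKM, or with the union of all exons as length, HLA-C ranked above B2M in H1650 and above TAPBP in untreated A549, and TAPBP was below HLA-B already in untreated H1650 (34.1 against 100.7 FPKM, and 455 against 502.5 TPM). On the FPKM scale TAPBP was also below HLA-E there (55.1 FPKM). The union exon length was chosen after the data were seen. HLA-B stood below HLA-E in A549 and above it in H1650 under all 3 lengths.

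**Figure D3:**
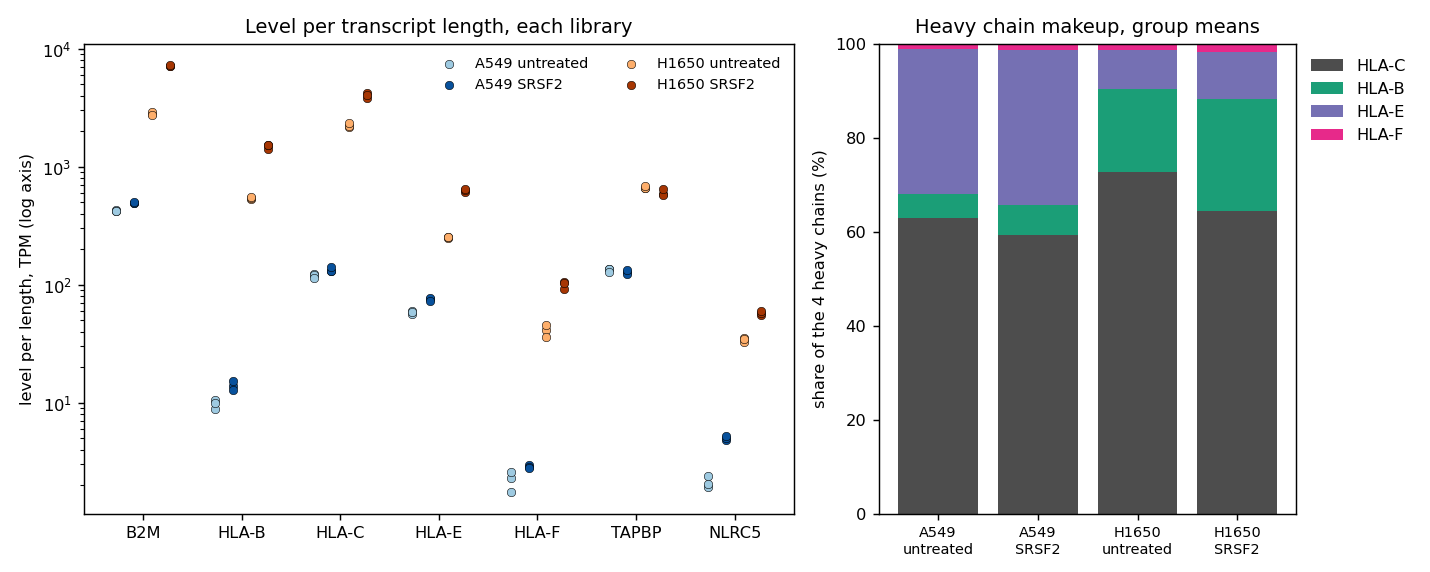
Left, level per transcript length of each class I gene in each library, in TPM on a log axis, coloured by group. Right, share of the summed level of the 4 measured heavy chains taken by each, in percent, as group means of 3 libraries; HLA-C falls from 72.8% to 64.4% in H1650 and HLA-B rises from 17.7% to 23.9%.

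The makeup of the 4 measured heavy chains, each as a share of their summed level per length, differed between the lines. In H1650 the HLA-C share was 72.8% ± 0.335 (SD, n = 3) untreated and 64.4% ± 0.503 with SRSF2, while the HLA-B share was 17.7% ± 0.229 and 23.9% ± 0.284. HLA-E took 8.23% ± 0.180 and 10.1% ± 0.228 there. In A549 the HLA-C share was 62.9% ± 0.978 and 59.4% ± 2.16, HLA-E took 30.8% ± 0.924 and 33.1% ± 1.53, and HLA-B took 5.17% ± 0.554 and 6.21% ± 0.609. The H1650 shares of these 3 chains did not overlap between conditions, whereas in A549 those of HLA-C and HLA-E did. Other heavy chain genes are not part of these sums. As a ratio, HLA-B per HLA-C went from 0.243 ± 0.00417 to 0.371 ± 0.00724 in H1650 (1.52-fold) and from 0.0822 ± 0.00927 to 0.105 ± 0.0139 in A549 (1.27-fold). In each line the 3 over-expressing libraries were above the 3 untreated ones, and the exact two-sided permutation p was 0.1, the smallest that 3 against 3 libraries allow.

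The supply of light chain was set against the summed heavy chains in the same way. In H1650 the ratio of B2M to the 4 heavy chains was 0.918 ± 0.0482 untreated and 1.15 ± 0.0413 with SRSF2 (1.25-fold, exact two-sided permutation p = 0.1, no overlap). In A549 it was 2.23 ± 0.0462 and 2.18 ± 0.0236 (exact two-sided permutation p = 0.2, overlapping). The size of this ratio depended on the length used: with the authors' deposited FPKM it was 0.679 and 0.661 in A549 and 0.292 and 0.364 in H1650, untreated and with SRSF2, and with union exon length 0.579 and 0.562 and then 0.267 and 0.335. Under all 3 lengths every A549 library held more B2M per measured heavy chain than any H1650 library.

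Immunoproteasome subunits replace constitutive ones and change which peptides are cut, so each was divided by the subunit it replaces. In H1650, PSMB8 per PSMB5 went from 1.04 ± 0.0992 to 1.71 ± 0.0612, PSMB9 per PSMB6 from 0.269 ± 0.0231 to 0.442 ± 0.0439, and PSMB10 per PSMB7 from 0.111 ± 0.00236 to 0.151 ± 0.0152. These are changes of 1.64-fold, 1.64-fold and 1.35-fold, each without overlap. In A549, PSMB8 per PSMB5 went from 0.0743 ± 0.00419 to 0.0920 ± 0.00325 (1.24-fold) and PSMB9 per PSMB6 from 0.0552 ± 0.00573 to 0.0808 ± 0.00293 (1.47-fold), without overlap. PSMB10 per PSMB7 in A549 was 0.0135 ± 0.000697 and 0.0147 ± 0.00220, with overlap (exact two-sided permutation p = 0.5). For each ratio without overlap the exact two-sided permutation p was 0.1. The sizes of these ratios also depended on the length: PSMB8 per PSMB5 in untreated H1650, for example, was 4.24 from the authors' deposited FPKM and 0.533 with union exon length.

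**Figure D4:**
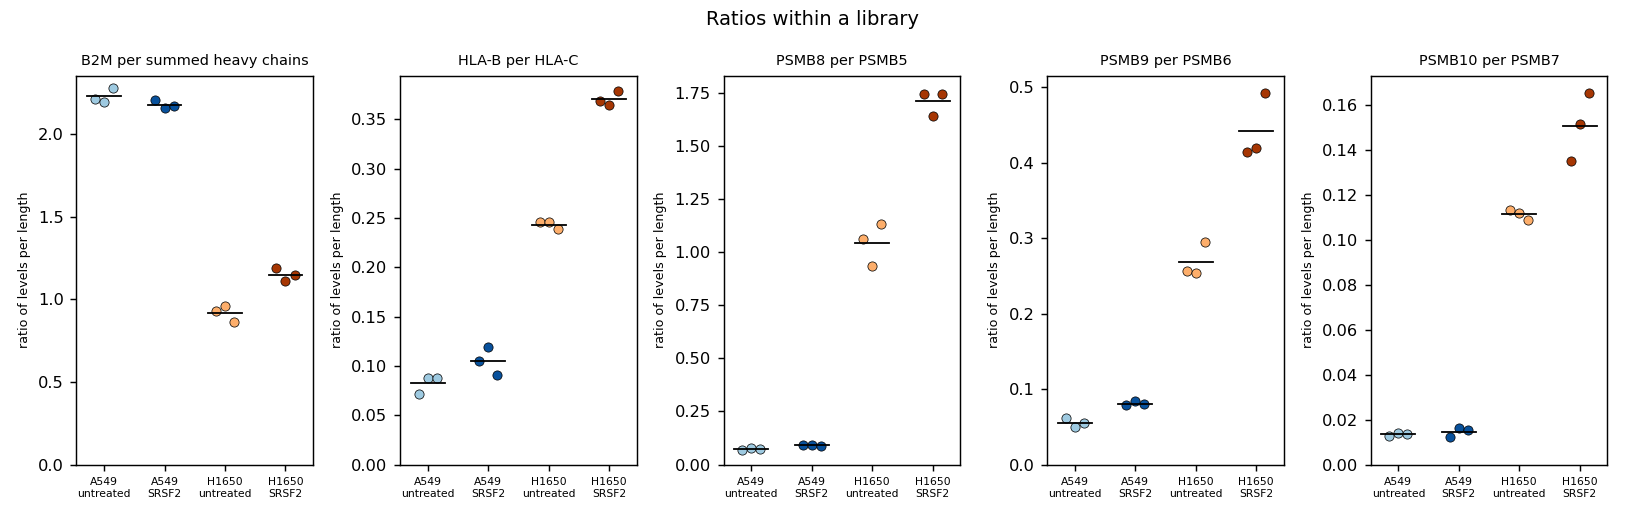
Ratios of levels per length within each library: B2M to the 4 heavy chains, HLA-B to HLA-C, and each immunoproteasome subunit to its constitutive counterpart. Points are libraries, lines are means of 3, and axes start at 0; in H1650 the SRSF2 libraries lie above the untreated ones in all 5 panels, and in A549 in 3 of them.

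The genes around the members were read as 8 lists, each described by its count of called genes and its median log2 fold change. Each count is to be set beside the share of all tested genes. In A549, 16.4% rose and 15.9% fell, and in H1650 31% rose and 31.3% fell. In the difference between lines, A549 minus H1650, 24% were called higher and 23.5% lower. The lists are small, so a count near these shares is not a result about the list. Of 11 tested genes of peptide supply (ERAP2 had no row), 7 rose and 1 fell in H1650 (median 0.26). Best supported were the proteasome activator subunits PSME1 (0.80) and PSME2 (0.55) and the immunoproteasome subunits PSMB9 (0.83) and PSMB8 (0.62), with edgeR adjusted p between 5.95e-15 and 8.47e-12. In A549, 3 rose and 2 fell (median 0.08): PSMB9 (0.49), PSMB8 (0.26) and the trimming peptidase ERAP1 (0.23) rose, and the peptidase BLMH fell by 0.42 (edgeR adjusted p = 2.51e-07). The A549 count rested in part on SRSF2 replicate 2, without which 1 rose and 1 fell. Of the 3 constitutive proteasome subunits, 0 passed the edgeR test in A549 (0 by DESeq2, 0 at an unadjusted p of 0.05), while in H1650 PSMB7 (0.17) and PSMB6 (0.11) rose, with medians of -0.05 and 0.11. Without H1650 untreated replicate 2 the H1650 count was 1.

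Among 7 helpers of folding and loading, 5 rose and 1 fell in each line. Shares of all tested genes that rose and fell were 31% and 31.3% in H1650 and 16.4% and 15.9% in A549. Medians of the helpers were 0.60 in H1650 and 0.14 in A549. The chaperone HSPA5 rose most, from 897 ± 8.01 to 2469 ± 93.4 CPM in H1650 (log2 1.46, edgeR adjusted p = 1.91e-28) and from 778 ± 8.60 to 1317 ± 25.3 CPM in A549 (log2 0.76, edgeR adjusted p = 3.97e-19). CANX, a lectin chaperone of new heavy chains, rose by 0.70 in H1650 and 0.33 in A549 on the log2 scale, and PDIA3, an oxidoreductase of the loading complex, by 0.60 and 0.20. TAPBPL, the tapasin-related peptide editor, went opposite ways: it rose from 33.9 ± 0.685 to 53.5 ± 3.60 CPM in H1650 (log2 0.66, edgeR adjusted p = 1.38e-11) and went from 9.13 ± 0.526 to 7.14 ± 0.673 CPM in A549 (log2 -0.36, edgeR adjusted p = 0.00286). Its difference between the lines was -1.01 (edgeR adjusted p = 1.93e-09).

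Of 8 partners of NLRC5 at class I promoters, 1 rose in A549 (median 0.06) and 4 rose and 1 fell in H1650 (median 0.12). Over all tested genes, 16.4% rose in A549, and 31% rose and 31.3% fell in H1650. ATF1, a CREB/ATF protein, rose in both, by 0.40 in A549 and 0.54 in H1650 (edgeR adjusted p = 8.18e-06 and 1.77e-09). In H1650 RFX5 (0.24) and CREB1 (0.27) also rose, and NFYB fell by 0.18. The A549 count was 2 when A549 untreated replicate 1, A549 SRSF2 replicate 3, H1650 SRSF2 replicate 1 or H1650 SRSF2 replicate 3 was left out.

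Inducers of class I genes, the interferon receptors, JAK and STAT proteins, interferon regulatory factors and NF-kB subunits, rose in 11 of 14 cases in A549, with 0 that fell by edgeR, by DESeq2 or at an unadjusted p of 0.05 (median 0.29). In H1650, 6 rose and 2 fell (median 0.10). The shares of all tested genes were 16.4% higher and 15.9% lower in A549, and 31% higher and 31.3% lower in H1650. IRF9 had no row. Of the 14, 7 were higher and 4 lower in the difference between lines, A549 minus H1650, beside 24% and 23.5% of all tested genes. IRF1, which binds the interferon site of class I promoters, was among the 4: it had 46.7, 46.8 and 47.7 CPM in untreated H1650 and 136, 150 and 157 CPM with SRSF2 (log2 1.65, edgeR adjusted p = 5.37e-24). In A549 it had 34.0, 29.5 and 30.8 CPM and then 41.1, 38.1 and 41.3 CPM (log2 0.35, edgeR adjusted p = 1.65e-05), and the difference between the lines was -1.30 (edgeR adjusted p = 1.80e-15). STAT2, a signal carrier of type I interferon receptors, went from 21.6 ± 0.419 to 32.4 ± 2.64 CPM in A549 and from 194 ± 5.71 to 252 ± 21.98 CPM in H1650, rises of 0.58 and 0.38 on the log2 scale. JAK1, a kinase bound to interferon receptors, rose by 0.29 in A549 (edgeR adjusted p = 8.98e-08) and was at 0.08 in H1650 (edgeR adjusted p = 0.0702). Its difference between the lines was 0.22 (edgeR adjusted p = 8.05e-04). JAK2, a listed kinase named after its values were seen, had the other order of the lines. It had 18.9 ± 0.84 and then 32.7 ± 1.42 CPM in H1650, and 13.7 ± 0.46 and then 12.7 ± 0.38 CPM in A549. The NF-kB subunits NFKB2 (0.74 and 0.72) and RELB (0.67 and 0.75) rose in both A549 and H1650, and the differences between the lines were 0.03 (SE 0.06, edgeR adjusted p = 0.774) and -0.07 (SE 0.07, edgeR adjusted p = 0.438). RELA rose by 0.23 in A549 and 0.66 in H1650. The 2 inducers that fell in H1650, named after their values were seen, were the type I interferon receptor chains IFNAR1 (-0.30) and IFNAR2 (-0.48).

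**Figure D5:**
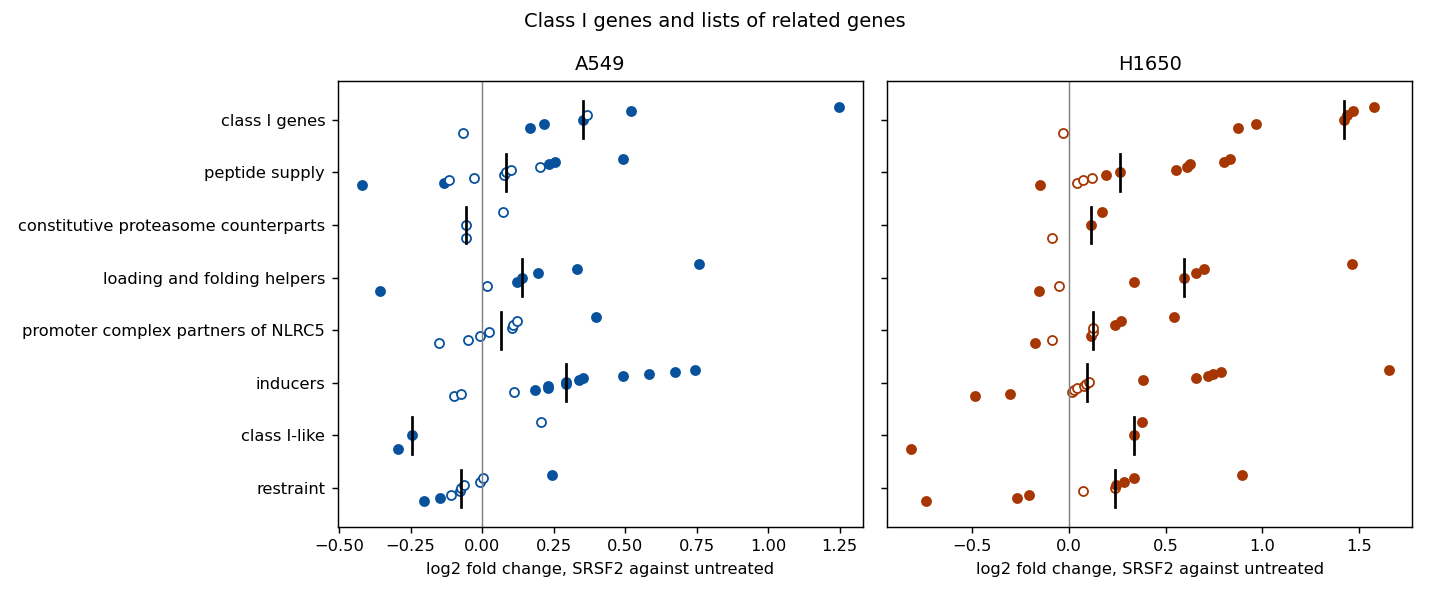
Log2 fold change, SRSF2 over-expressing against untreated, of each measured class I gene and of each gene in 7 lists of related genes, in A549 (left) and H1650 (right). Points are genes, filled where the edgeR adjusted p passed 0.05 and open where it did not, and black bars are list medians. The class I median is 0.35 in A549 and 1.42 in H1650, and the 2 panels have different axes.

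Among other molecules with a class I fold, 2 rose and 1 fell in H1650 (median 0.34), and 2 fell in A549 (median -0.25). Of all tested genes, 31% rose and 31.3% fell in H1650, and 16.4% rose and 15.9% fell in A549. HFE, which binds the transferrin receptor, fell by 0.81 in H1650 and by 0.29 in A549 on the log2 scale (edgeR adjusted p = 2.09e-13 and 1.19e-04). FCGRT, the neonatal Fc receptor chain, rose by 0.38 in H1650 and fell by 0.25 in A549. MR1, which presents vitamin metabolites, rose by 0.34 in H1650 and was at 0.21 in A549 (edgeR adjusted p = 0.112). FCGRT and HFE both pair with B2M, as MR1 does. Of the 6 listed genes 3 were tested, and the A549 count of 2 was 1 without A549 untreated replicate 2 or A549 SRSF2 replicate 2.

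While 31% of all tested genes rose in H1650 and 15.9% fell in A549, the class II list was small. Of 9 class II genes 4 were tested, of which 2 rose in H1650 (median 0.92) and 1 fell in A549 (median 0.25). In the difference between lines 0 were called higher and 0 lower by edgeR, with 0 to 3 called under the other settings. CIITA, the class II activator and a relative of NLRC5, had 0.932, 1.57 and 1.26 CPM in untreated H1650 and 1.71, 3.13 and 3.88 CPM with SRSF2 (log2 1.23, edgeR adjusted p = 2.17e-04). The invariant chain CD74 had 2.44, 2.41 and 2.61 CPM and then 3.86, 7.35 and 7.50 CPM (log2 1.33, edgeR adjusted p = 1.88e-07), with replicate 1 the lowest of the over-expressing libraries for both genes. In A549 CD74 went from 0.82 ± 0.20 to 1.28 ± 0.24 CPM (log2 0.64), which was not called, and the peptide-exchange chain HLA-DMB fell by 0.51 (edgeR adjusted p = 0.0142). The A549 count was 0 without A549 SRSF2 replicate 3 and 2 without H1650 SRSF2 replicate 1.

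Genes reported to hold class I expression or surface levels down were mixed: 1 rose and 2 fell of 9 in A549 (median -0.07), and 4 rose and 3 fell in H1650 (median 0.24). Over all tested genes, 16.4% rose and 15.9% fell in A549, and 31% rose and 31.3% fell in H1650. SUSD6, a membrane protein that promotes class I degradation, fell from 56.1 ± 2.72 to 33.5 ± 3.38 CPM in H1650 (log2 -0.74, edgeR adjusted p = 8.76e-13) and rose from 20.1 ± 0.468 to 23.8 ± 1.08 CPM in A549 (log2 0.24, edgeR adjusted p = 0.00672). WWP2, a ubiquitin ligase that acts with it, fell in both, by 0.27 in H1650 and 0.15 in A549. MARCHF9, a membrane-bound ubiquitin ligase of class I molecules, rose from 6.25 ± 0.184 to 11.6 ± 1.21 CPM in H1650 and was at 6.05 ± 0.588 and 5.62 ± 0.261 CPM in A549. EZH2, the catalytic subunit of Polycomb complex PRC2, rose by 0.25 in H1650 and fell by 0.20 in A549, and its partner SUZ12 rose by 0.34 in H1650.

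The genes whose pattern over the 12 libraries was most like that of B2M, by Pearson's r of log2(CPM + 0.5) over 10928 genes, were LAPTM4A (r = 0.9995), APOL1 (0.9993) and CAB39 (0.9992). For NLRC5 they were SAMD9L (0.9995), ISG15 (0.9989) and PARP12 (0.9984). All 12 points come from 2 lines that differ in most tested genes, so these values are a description.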

How the data were processed

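Polyadenylated RNA of 12 libraries was analysed from the raw gene counts that the authors deposited, which carry Ensembl gene IDs. The submitters' processing notes name fastp 0.20.1, STAR 2.7.7a, featureCounts 2.0.0 and GRCh38, without their settings. The FPKM values the authors deposited equal the count over the library total and a gene length that takes in introns for most members (94047 bases for NLRC5), so they were used only as an alternative. Symbols came from a gene name table for 16076 IDs.

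Counts were filtered with filterByExpr, scaled by TMM and fitted over all 4 groups with edgeR 4.0.16 in R 4.3.3 (quasi-likelihood F test, no block, 8 residual degrees of freedom). SE is the absolute log2 fold change over the root of F. Limma 3.58.1 and DESeq2 1.42.0 gave alternatives, ratios had exact permutation tests (SciPy 1.17.1), and the fit was tested on simulated data. The members and lists were chosen with earlier results of these data known. All members are named. Of each list, at most 4 genes with the smallest adjusted p in the A549 or the H1650 comparison are named, as are proteasome pairs. IFNAR1, IFNAR2 and JAK2 were added after their values were seen. Of the listed genes 2 are not reported here and were left out of their lists, after the data were seen. The 3 genes most like B2M and NLRC5 needed a mean of 5 CPM. Total counts per library, 23876899 to 32079027, set the precision.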

Additional observations from a re-analysis of the deposited data

Results flagged for a closer look

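The change with SRSF2 differed between A549 and H1650 for the genes below, by the edgeR interaction test at an adjusted p of 0.05. Apart from the class I genes, most had been named for a small adjusted p in 1 of the lines, so their number is not set against that of all genes. Values are the log2 fold change in A549 minus that in H1650. Among the class I genes these were B2M (-1.25), HLA-E (-1.09), HLA-B (-1.05), HLA-F (-1.05), HLA-C (-0.80) and NLRC5 (0.37).

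In peptide supply the differences were -0.73 for PSME1, -0.54 for BLMH, -0.45 for PSME2, -0.41 for PSMB10, -0.37 for PSMB8, -0.34 for PSMB9 and -0.17 for the constitutive subunit PSMB6. In folding and loading they were -1.01 for TAPBPL, which went opposite ways in the lines, -0.70 for HSPA5, -0.40 for PDIA3, -0.36 for CANX and -0.20 for CALR. Among regulators IRF1 had -1.30, RELA -0.43, RFX5 -0.25, STAT2 0.20, JAK1 0.22, NFYB 0.30, IFNAR1 0.49 and IFNAR2 0.78, the last pair named after their values were seen. Among class I-like and restraint genes MARCHF9 had -1.001, FCGRT -0.62, EZH2 -0.45, SUZ12 -0.40, HFE 0.52 and SUSD6 0.98. FCGRT, EZH2, SUSD6, IFNAR1 and IFNAR2 each passed the test in both lines with opposite signs.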

How the results depend on the processing

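The counts of called class I genes (5 in A549, 6 in H1650, 6 for the difference, 7 between untreated lines) stayed within 1.5 times under all 75 alternatives. With the replicate number as a block they were again 5, 6, 6 and 7; same-numbered libraries of a line did not deviate together (correlations -0.04 to 0.06), so the numbers were not read as pairs. Of 525 recomputed member fold changes 519 kept direction and side of the threshold. The difference for NLRC5 reversed to -0.11 on log2(FPKM + 0.1) and to -0.33 on log2(FPKM + 1). That for TAPBP, not called, reversed to 0.0398 and 0.0447, and ranged from -0.0678 (without A549 untreated replicate 3) to 0.00595 (without H1650 SRSF2 replicate 3). The deposited FPKM divide by other gene lengths, which take in introns for most members, and against them 4 members kept their rank by level in untreated A549 and 2 in untreated H1650; with union exon length, added after seeing the data, 2 and 1 did. The change of NLRC5 in H1650 was 0.45 on log2(FPKM + 1). Counts for the lists of related genes kept within 1.5 times in 575 of 600 alternatives; 12 were lower and 13 higher, mostly in small lists. HLA-F in A549 rested on 34 to 56 counts per library, and its change was 0.22 without A549 untreated replicate 1.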
